A study of Mus musculus with 19 samples.

Results

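The Irf1 locus was taken as the 90 kb of mouse chromosome 11 from 53630000 to 53720000 (build mm39), and every region of the deposited list of accessible regions that overlapped it was included. This gave 33 of the 140383 regions in the list. The gene Irf1 spans about 53660841 to 53669200 on the plus strand, and distances below are counted from that start, with negative values upstream. The locus was chosen by its measured number of regions, which lie close together, with the list's values in view. Number, spacing, fold and −log10 q are therefore given as a description and were not tested.

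The regions come from ATAC-seq, in which Tn5 transposase cuts open DNA, in bone marrow-derived macrophages of mice. The labels name 19 samples in 10 groups. Wild-type cells from Csf1r-Cre mice gave 9 samples, and Smarca5-deleted cells from Smarca5lox/lox Csf1r-Cre mice gave 10. Cells of both genotypes were differentiated for 7 days with 4-hydroxytamoxifen each day. Each genotype had untreated cells and cells stimulated for 1 or 2 h, either with the bacterial product LPS (10 ng/ml) or with the cytokine interferon beta (100 U/ml). Cre is driven by Csf1r, the gene of the growth factor receptor of the macrophage lineage. Each group had 2 samples, except that wild-type cells stimulated with interferon beta for 1 h had 1. The list holds a single set of values per region, pooled over the series, so no value can be assigned to a genotype, a treatment or a replicate, and no replicate error exists. The depth behind each value is unknown. Whether the starts of macrophage genes were accessible was not analysed here, since no gene positions on mm39 other than that of Irf1 were used.

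IRF1 is a transcription factor of the interferon regulatory factor family. Its gene is known as an early target of interferon signalling, through GAS elements in the DNA, and of inflammatory signalling, through NF-kappaB. The protein binds interferon-stimulated response elements and activates genes of antiviral defence and antigen presentation in macrophages. Smarca5 encodes the ATPase of ISWI complexes, which space and slide nucleosomes. In the RefSeq gene order of the older build GRCm38.p6, Irf1 lies between Mir7671, a microRNA gene, and Gm12216, a long noncoding RNA gene. Il5, which encodes interleukin 5, comes next upstream of Mir7671.

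The sequence before the gene start is shown because the region there was among the strongest of the locus. The RefSeq promoter table, whose build is GRCm38.p6, gave these 250 bases, 5′ to 3′ on the plus strand, with matches to 3 of the searched motifs in capitals:
Irf1: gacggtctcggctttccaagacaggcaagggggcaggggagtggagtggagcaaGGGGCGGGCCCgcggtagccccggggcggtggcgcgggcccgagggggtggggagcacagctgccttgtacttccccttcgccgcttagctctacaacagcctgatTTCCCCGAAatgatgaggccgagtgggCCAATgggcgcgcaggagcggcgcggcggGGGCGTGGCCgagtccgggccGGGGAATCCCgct

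The capitals mark 1 match to the GAS motif TTCNNNGAA, from −90 to −82, and 1 match to CCAAT, the motif of the factor NF-Y, from −63 to −59. They also mark matches to a loose kappaB motif (GGG, any 5 bases, then CC). These lay from −196 to −186, from −34 to −25 and from −13 to −4, the last reading GGGGAATCCC. Both strands were searched over 300 bases, 250 before the start and 50 from it on. Of 32851 promoters of the same length in the table, 8.30% held the GAS motif, 50.8% the kappaB motif and 37.4% CCAAT, so a kappaB match of this kind was common. Both GAS and kappaB were present in 3.54%. The 300 bases at this start were 69.3% G or C (89.9th percentile), against a median of 52.7% over the promoters. The shares given here are over all promoters and were not matched for base content. No match was found to the core of the interferon-stimulated response element (GAAA, any 2 bases, then GAAA), to TGANTCA (AP-1) or to TATAAA, which 3.44%, 7.81% and 13.6% of promoters held. The short core GGAAG, part of sites of the macrophage factor PU.1, had 1 match and was present in 71.4%. The table gives Irf1 a second start, whose 300 bases held none of these motifs except 1 match to GGAAG. A match describes letters only, and no binding was measured.

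The gene start lay within a broad and strong accessible region. That promoter region ran from 53660551 to 53661231, or −290 to 390, and was 681 bp wide. Its summit was at −105. Its fold, the authors' enrichment of reads over the background, was 20.4, and its −log10 q was 829. By fold it stood at the 85.8th percentile of the list, by −log10 q at the 98.1st and by width at the 97.8th. The 250 bases printed above would fall inside it if the start in the RefSeq table is the same base as the start used here, which could not be checked without the mm39 sequence. No other region overlapped the stretch from 1000 bp before to 500 bp after the gene start.

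The region with the highest −log10 q and the greatest width of the locus lay upstream of the gene, not at its start. It ran from 53654238 to 53655087, 850 bp, with its summit at −6244, a fold of 15.1 and a −log10 q of 852. In the whole list 1.81% of regions had a −log10 q as high. A narrower region of 210 bp stood 263 bp before it, from 53653765 to 53653974, with a summit at −7031, a fold of 12.0 and a −log10 q of 786. This stretch and the promoter region therefore had −log10 q values of similar size, while fold was higher at the promoter.

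Accessibility called within the gene was strongest just after the promoter. Beyond the promoter region, the gene body held 5 regions, all of them at most 197 bp wide. The first, from 53661456 to 53661568, began 615 bp after the start and had a fold of 10.1 and a −log10 q of 488. This value, that of the promoter and those of the 2 upstream regions at −7031 and −6244 were the 4 highest of the locus, and the next highest was 189. The second region of the gene body, from 53662276 to 53662472, had a fold of 5.53 and a −log10 q of 62.1. The third, from 53663495 to 53663635, had the lowest fold of the locus, 3.02, with a −log10 q of 26.0. The region from 53665647 to 53665785 had a fold of 3.57 and a −log10 q of 41.3. The last, from 53666696 to 53666881, had a fold of 3.60 and a −log10 q of 19.3. Fold was thus highest at the promoter, lower in the first and second regions after it, and between 3.02 and 3.60 in the remaining 3. Whether these regions lie in exons or introns was not assigned.

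**Figure D1:**
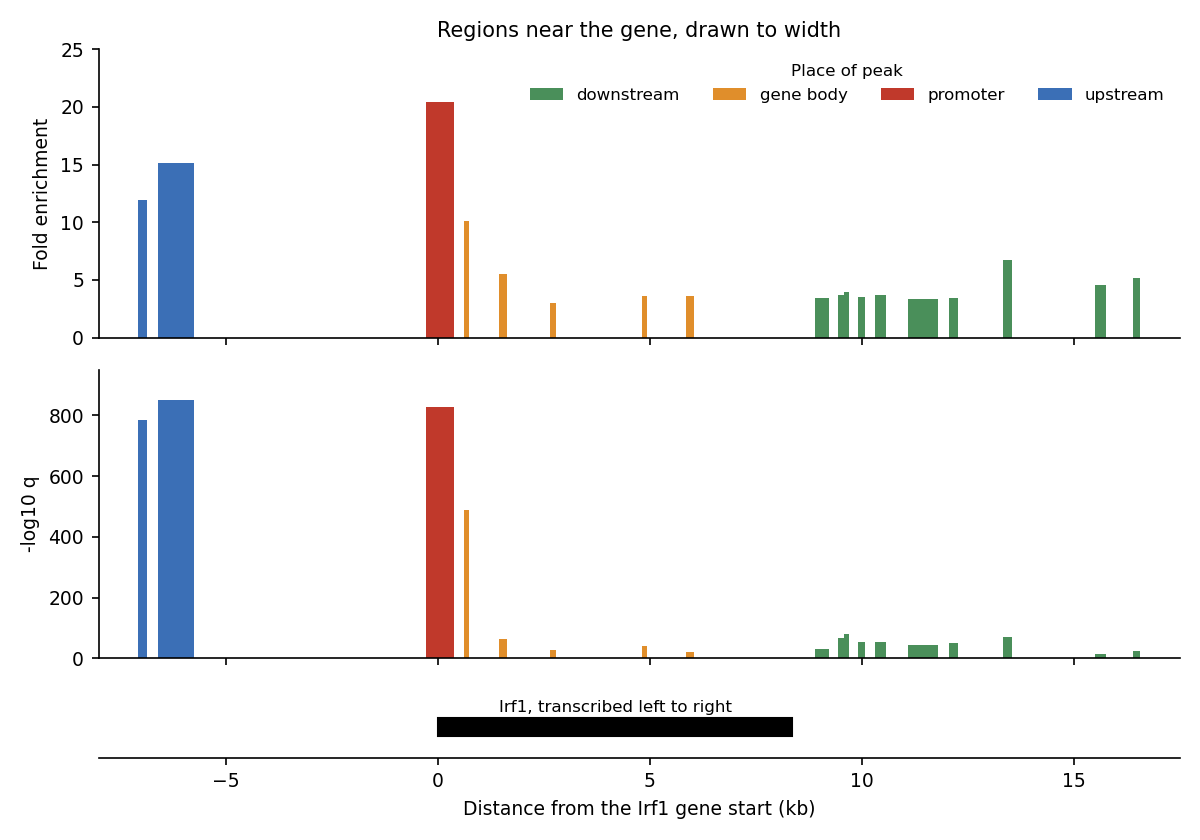
Fold enrichment (top) and −log10 q (bottom) of each region against its distance in kb from the Irf1 gene start, with bars drawn to the width of the region, coloured by place, and the gene as a black bar. Of the regions drawn, the promoter and the upstream regions at −7031 and −6244 are the tallest by −log10 q, and the 7 regions from 8904 to 12271 have folds from 3.32 to 3.96.

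Just past the end of the gene lay a close row of low-fold regions. Between 8904 and 12271, a span of 3368 bp, there were 7 regions with folds from 3.32 to 3.96, and together they covered 1949 bp. Their widths ran from 114 to 715 bp and the gaps between them from 0 to 516 bp. All 7 stood in the lowest 4.11% of the list by fold. Their −log10 q values ran from 31.7 to 78.7, however, and 5 of the 7 were above the list's median of 45.3. The lowest fold among them, 3.32, belonged to a wide region of 715 bp from 53671932 to 53672646, with a −log10 q of 42.7. The first, from 53669745 to 53670072, had a fold of 3.40 and a −log10 q of 31.7. The highest −log10 q, 78.7, was at 53670432 to 53670545, which had a fold of 3.96. That region touched the one before it, which had a fold of 3.70 and a −log10 q of 67.5. The next region downstream, with its summit at 13446, had a fold of 6.70 and a −log10 q of 70.8.

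The 33 regions fell into 6 runs when neighbours at most 5000 bp apart were joined. The run that held the promoter had 16 regions over 16.9 kb, from −290 to 16573, and the other runs had 3 to 5 regions each. Of the 16 regions, 11 had a fold below 5, against 2 of the other 17, and the median fold was 3.68 in this run and 10.6 outside it. In all, 13 of 33 regions had a fold below 5 (39.4%), a share of 10.4% in the whole list and 13.0% on chromosome 11. A fold of 20 or more was reached by 2 regions (6.06%), against 15.0% of the list. The low folds of the locus were thus mostly those around and behind the gene.

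The highest fold of the locus was found far upstream. The region from 53639442 to 53639835, with its summit at −21235, had a fold of 22.9 and a −log10 q of 169. Just before it lay a touching pair. The narrowest region of the locus, 19 bp from 53639009 to 53639027, had a fold of 11.2 and a −log10 q of 80.8. It touched a region of 339 bp, from 53638670, that had a fold of 4.98 and a −log10 q of 15.6, which was also the first region inside the window. In the locus 2 regions touched the one before them, and 1.23% of the list did so. A single region, with its summit at −11786, stood between this run and the strong upstream regions, with a fold of 6.62 and a −log10 q of 38.9.

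Beyond 20 kb downstream the folds were higher again, in 3 runs with 11 regions. Their folds ran from 4.77 to 13.3, with a median of 10.5. The strongest by −log10 q were a region from 53685562 to 53686307, 746 bp wide, with a fold of 11.9 and a −log10 q of 175, and one from 53687749 to 53687911 with a fold of 11.9 and a −log10 q of 189. Their summits were at 25008 and 26992. The run with summits from 33228 to 35990 held 3 regions with folds from 8.78 to 10.6 and −log10 q values from 39.2 to 42.3. The last run held 5 regions with folds from 6.71 to 13.3. Its last member, from 53716372 to 53716536, was the last inside the window, with a fold of 13.3 and a −log10 q of 54.6. The nearest region before the window ended at 53628679 and had a fold of 9.83. The nearest one after it began at 53726566 and had a fold of 7.89.

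**Figure D2:**
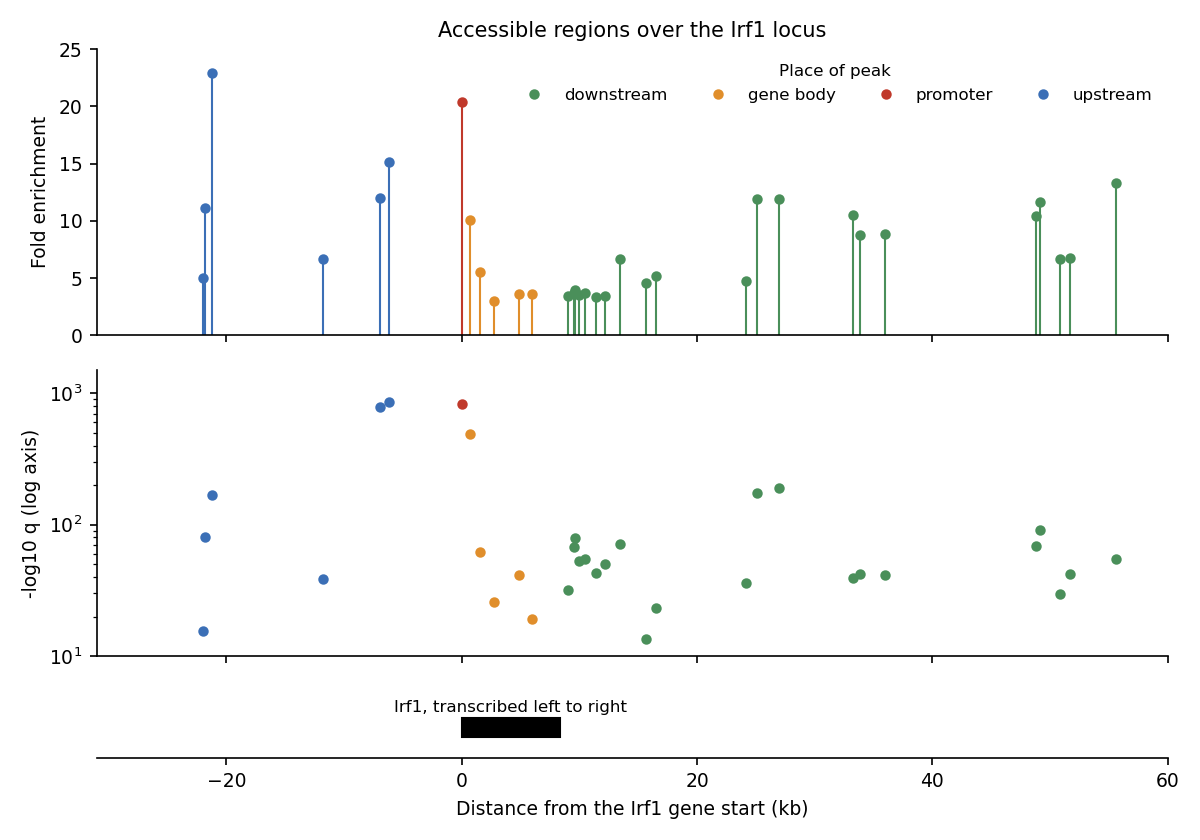
Fold enrichment (top, linear axis) and −log10 q (bottom, log axis) of the 33 regions against distance in kb from the Irf1 gene start; each point is 1 region, coloured by place, and the black bar is the gene. The folds are high at −21, −6 and 0 kb, lowest from 2 to 12 kb and higher again beyond 24 kb.

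Many regions of the locus had a higher −log10 q than other regions of like fold. Each −log10 q was divided by the median of the regions in the same of 100 bins by fold over the whole list. A ratio of at least 2 was found for 20 of the 33 regions (60.6%), against 21.0% of the list and 26.7% on chromosome 11. With bins made on chromosome 11 only, the count was 17 of 33. The share of all chromosome 11 regions under those bins was not computed, so the shares above are not its background. With the bins of the whole list, the ratio was at least 5 for 5 regions (15.2%; list, 4.19%; chromosome 11, 6.63%). It was 16.3 for the region at −7031, 14.1 for the first in the gene body, 10.5 for that at −6244, 5.39 for the promoter and 5.09 for the region at 53670432. The 7 low-fold regions past the gene's end had ratios from 2.05 to 5.09. By contrast, the region of highest fold, at −21235, had a ratio of 0.799, and the last one of the locus had 0.933. Across the 33 regions Spearman's rho between fold and −log10 q was 0.635, against 0.836 over the list and 0.813 on chromosome 11; neighbouring regions share libraries and local background, so this is a description only. A −log10 q at or above the median of the list was reached by 18 regions (54.5%; list, 50.0%), while 21 had a fold below the list's median of 9.85.

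**Figure D3:**
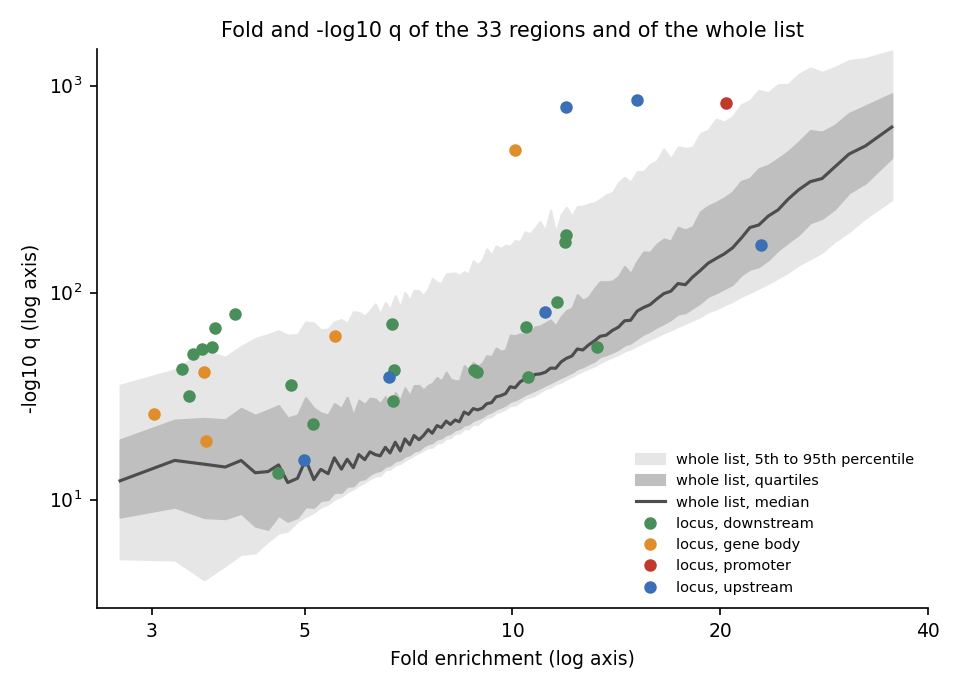
−log10 q against fold enrichment, both on log axes, for the 33 regions (points, coloured by place) over the median, quartiles and 5th to 95th percentile of the whole list in 100 bins by fold. The promoter, the upstream regions at −7031 and −6244 and the first region of the gene body lie well above the line of medians, as do the 7 low-fold regions from 8904 to 12271.

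The deposited scores of the locus were mostly not whole numbers. For each score the smallest whole multiplier that made it whole was sought, within 1e-06 times that multiplier. It was 20 for 4 of the 33 regions (12.1%, against 14.6% of the list), those with summits at −21235, −6244, 13446 and 35990. Multipliers up to 20 were tried, so any score that needed a larger one was not counted as above 10. All 33 scores of the locus had a multiplier within that limit. The limit can therefore lower only the list's share above 10, and the 2 shares are not fully alike. The multiplier was above 10 for 12 regions (36.4%; list, 22.1%). It was 1 for 3 regions, among them the promoter region, whose score was 8289. A whole score may also be a mean that came out whole, so it does not show from how many values the promoter region was made. Of the 7 low-fold regions past the end of the gene, 2 had a multiplier of 16 and the others had multipliers from 2 to 10. The shares of the list with a multiplier of 1 or of 16 were not counted. The processing notes do not say how values were combined or which samples entered each region.

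The locus had many regions for its length, but its other values over the 90 kb lay within the range of equally crowded windows. The run that held the promoter had lower folds than most runs of its size. Its 33 regions gave 367 per Mb, whereas chromosome 11 as a whole had 84.9 per Mb, and 9.51% of its bases were covered, against 2.17% on the chromosome. Over 30210 windows of 90 kb tiled along the assembled chromosomes the median was 1 region per window. Of these windows, 7 (0.0232%) held 33 or more. The highest number on this tiling was 37, on chromosome 17 from 34290001 to 34380000. With the windows offset, 17 of 30197 (0.0563%) held 33 or more, and the highest number was 42. The locus window was placed around regions seen to lie close together, whereas tiled windows fall without regard to clusters. Such a comparison therefore favours the locus. In the 7 windows of the first tiling, 26.5% to 62.9% of the regions had a fold below 5, and the locus's 39.4% lay within that range. The median fold of the locus, 6.70, also lay within their range of 3.99 to 7.45, as did its highest −log10 q within 234 to 1004. Their share of regions with a −log10 q at least 2 times that of like fold ran from 40.5% to 82.4%, and the locus's 60.6% lay inside it. The median width was 188 bp in the locus, 200 bp on chromosome 11 and 196 bp in the list. The run that held the promoter was among 57 runs of 16 or more regions in 71094 runs of the list. Only 3 of these 57 had a lower median fold than its 3.68, and 3 had a larger share of regions with a fold below 5. That share was 68.8% in the run of the promoter, against a median of 36.8% over the 57. The median of their median folds was 6.08.

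**Figure D4:**
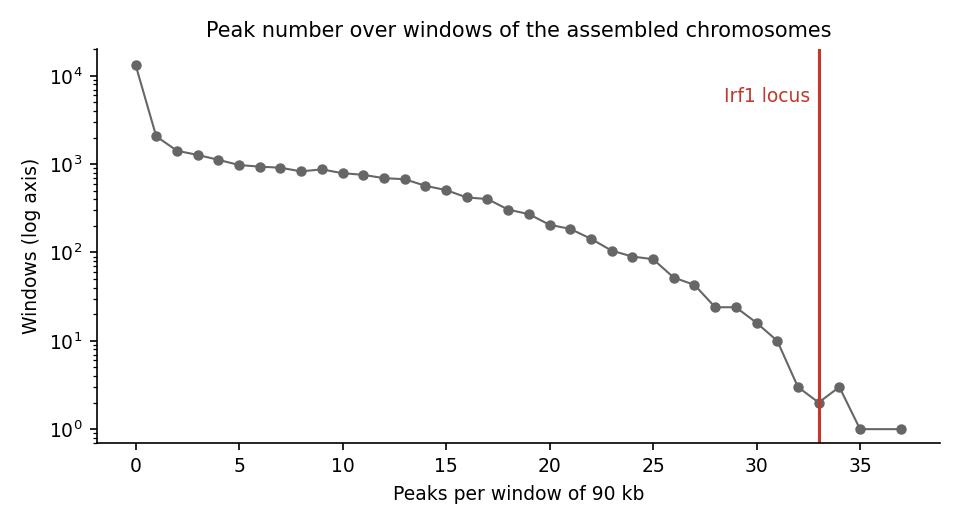
Number of 90 kb windows (log axis) against the number of regions in a window, over the assembled chromosomes, with counts of 0 windows left out; the red line marks the 33 regions of the Irf1 locus. In this tiling 7 windows lie at or beyond the line, and 17 did with the windows offset.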

How the data were processed

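The file analysed was a consensus peak list of the whole series. The submitters' processing notes name MACS2 2.2.7.1, STAR 2.7.9a, deepTools 3.5.1 and Picard 2.27.4, and the build mm39. What each did, whether reads were shifted, how peaks were called and how samples were merged is not given in those notes. The deposited fold was taken from the narrowPeak signal column, as a ratio over background. The deposited −log10 q value and the authors' score, which lay up to 1 below 10 times the −log10 q, describe each peak. Coordinates were read as counted from 1, since 0 summit offsets then reach the width of their peak, against 74 under a count from 0; which peaks touch rests on this reading.

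Peaks were taken by any overlap with the window, and gene start and end as given for the locus. All peaks overlapping the promoter or gene, the 5 highest and 3 lowest folds, the widest, the narrowest and those at the window's edges were to be named. Others were named after their values were seen. Members, lists, runs and ratios were chosen with earlier results of these data known. The comparison at other gene starts and of cell type markers was left out because the gene table is GRCm38.p6. No test was made. Calculations were tested on simulated data and were run in Python 3.11.15 with pandas 2.3.3, numpy 2.4.6, matplotlib 3.10.9 and scipy 1.17.1. Alternatives changed the window, threshold, merging, promoter, tiling, run gap and bins.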

Additional observations from a re-analysis of the deposited data

How the results depend on the processing

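Of 23 alternative values over 9 results, 14 stayed within 1.5 times (counts) or within the 95% interval of the main value. These results have no direction that could reverse. The interval ran from 4.58 to 10.5 for the median fold and from 163 to 210 bp for the median width, from the 33 peaks themselves. Neighbouring peaks are not independent and no replicate error exists. The interval therefore only sorts the alternatives and does not measure how the values would vary between samples. When peaks under the list's median −log10 q were dropped, the locus held 18 peaks with a median fold of 10.8 over 4962 bp, against 33 peaks, 6.70 and 8555 bp; this follows from removing weak peaks. A fold of 10 or more was reached by 12 peaks, against 2 at 20 or more. The list's median fold was 9.85, so a fold of 10 was near the middle of the list. Of the 33 peaks, 21 lay below that median. Within 2500 bp on either side of the gene start lay 3 peaks, against 1 in the narrower promoter. The locus had more peaks than 99.98% of windows, 99.94% with windows offset and 99.85% on chromosome 11. Chosen after seeing the data, the run of the promoter had 6 peaks when neighbours were at most 2500 bp apart and 32 at 10000 bp, against 16, so its size depends on that distance. The run of 32 took in peaks upstream of the window. It left out the last 5 peaks of the locus, which lie past a gap of 12.7 kb. Other gene starts and cell type markers could not be compared without mm39 positions. No paired analysis was possible because the peak list holds pooled values and, unlike the sample labels, names no replicate. With depth unknown, a stretch without peaks is not shown to be closed.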

Other observations

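Peaks of the locus differed in shape as well as in strength. A width of 600 bp or more was found for 4 of the 33 peaks, those at −6244, the promoter, 11632 and 25008, against 3.84% of the list. These 4 had folds of 15.1, 20.4, 3.32 and 11.9, with a median of 6.70 over the locus. Peaks picked by width cannot show whether width and fold go together. The summit of the promoter peak lay at −155 bp from its middle, and that of the wide peak at 11632 lay at 184 bp from its middle.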
